A study of Homo sapiens with 6 samples.

Results

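Fibulins and elastic fibre proteins were followed as 10 genes, FBLN1, FBLN2, FBLN5, EFEMP1, EFEMP2, ELN, FBN1, FBN2, MFAP2 and MFAP5, chosen by name out of the 28395 genes of the count table. Elastic fibres give a tissue its recoil. Fibrillin chains assemble outside the cell into microfibrils, tropoelastin is deposited on them as a core, and lysyl oxidases crosslink that core. Fibulins are secreted glycoproteins built around calcium-binding EGF repeats that join these parts to each other, to basement membranes and to integrins on the cell surface. In brain, elastic fibres are found mostly in vessel walls and meninges, and several fibulins are also known from the matrix that gliomas secrete.

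The genes were measured by RNA-sequencing in U251 (U251MG in the labels), an established human glioblastoma astrocytoma cell line. The WT group and the NUAK2-CR group, in which the kinase gene NUAK2 had been targeted with CRISPR-Cas9, had 3 libraries each. According to the methods, the edited cells received 2 lentiviral vectors carrying Cas9 and a NUAK2 guide, 1 marked with GFP and 1 with mCherry, and were sorted and grown as clones, while the methods describe no such vector for the WT cells. The labels name no clone, so a difference between the groups cannot be told apart from one between a clone and its parent line, and nothing in the labels says that the 3 libraries of a group came from separate cultures. The p-values measure only the spread between these libraries, which may be technical.

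Library totals lay between 29648445 and 55574081 counts, with WT replicate 1 the deepest. NUAK2 itself had 1926, 1457 and 1580 normalized counts in the WT libraries, and the edited libraries had 799, 961 and 849. Its mean in NUAK2-CR stood at 52.6% of WT (log2 fold change -0.93, edgeR adjusted p = 1.8e-05). The transcript was thus not lost, and NUAK2 protein was not measured here. Of 8 glioblastoma and astrocyte markers only OLIG2 was at 0 in all libraries. The summed level of that list lay between 8671 and 9583 CPM (counts scaled to the effective library size) in WT and between 4244 and 4308 in NUAK2-CR, and 6 of its genes fell and 1 rose. The 7 fibroblast and mural markers summed to between 1110.5 and 1134 CPM in WT and between 1638 and 1776 in NUAK2-CR, with 4 that rose and 2 that fell. Most of that sum was COL1A2, which rose from 34353 ± 643 to 58927.5 ± 2350 normalized counts (SD, n = 3 in each group). COL1A1, the next highest, fell from 6139 ± 1175 to 2761 ± 280. The 5 smooth muscle markers summed to between 64.2 and 84.0 in WT and between 145 and 169 in NUAK2-CR, with 2 that rose and 1 that fell. Among them ACTA2 rose from 93.0 ± 4.15 to 2138 ± 99.6 normalized counts and TAGLN from 2532 ± 384 to 3696 ± 385 (SD, n = 3 in each group), CNN1 fell from 94.9 ± 7.22 to 33.2 ± 7.94, and MYH11 and DES had at most 8 counts in any library. The 4 epithelial markers summed to between 141 and 162 CPM in WT and between 176 and 191 in the edited libraries. Among them KRT18 rose from 3520 ± 359 to 5499 ± 266 normalized counts and KRT8 fell from 2163 ± 87.1 to 1467 ± 80.0 (SD, n = 3 in each group). EPCAM had at most 4 counts and CDH1 at most 6 in any library. The 4 endothelial markers summed to at most 8.20 CPM in any library. Of the 4 immune markers PTPRC, CD3E and AIF1 had at most 3 counts in any library, while CD68, a lysosomal protein abundant in macrophages, fell from 683 ± 45.6 to 226 ± 22.7 normalized counts. The part that these shifts play in the results on elastic fibre genes was not tested. In RNA from many cells, fewer cells that express a gene and less RNA of it per cell cannot be told apart.

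The 10 members lie on 10 different chromosomes. Promoter windows of RefSeq, from 250 bases before to 50 bases after a transcription start in GRCh38.p14, were matched for 7 of them by symbol and not for EFEMP1, ELN and MFAP5. The windows of the 3 members that had a window and passed the thresholds for a differentially expressed gene (DEG) are shown, with FBLN5 at both of its listed starts. Capitals mark the motif letters searched on both strands, which were the GC box GGGCGG, the TATA letters TATAAA, the TEAD core CATTCC, the AP-1 letters TGANTCA and the CArG box.
FBLN1, chr22:45502633-45502932, plus strand: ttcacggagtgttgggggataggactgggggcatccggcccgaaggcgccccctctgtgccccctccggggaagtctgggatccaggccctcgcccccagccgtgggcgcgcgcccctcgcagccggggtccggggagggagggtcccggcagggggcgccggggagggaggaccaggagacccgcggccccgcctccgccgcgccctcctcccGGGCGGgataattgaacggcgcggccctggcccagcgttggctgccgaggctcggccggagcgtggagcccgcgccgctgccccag
FBLN5, first window, chr14:91947645-91947944, minus strand: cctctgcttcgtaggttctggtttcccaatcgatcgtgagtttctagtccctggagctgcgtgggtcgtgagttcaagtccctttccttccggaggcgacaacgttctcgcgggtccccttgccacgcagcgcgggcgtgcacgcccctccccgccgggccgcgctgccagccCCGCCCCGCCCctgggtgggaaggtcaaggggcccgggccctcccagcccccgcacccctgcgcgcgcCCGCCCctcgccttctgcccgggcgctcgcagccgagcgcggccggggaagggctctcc
FBLN5, second window, chr14:91946983-91947282, minus strand: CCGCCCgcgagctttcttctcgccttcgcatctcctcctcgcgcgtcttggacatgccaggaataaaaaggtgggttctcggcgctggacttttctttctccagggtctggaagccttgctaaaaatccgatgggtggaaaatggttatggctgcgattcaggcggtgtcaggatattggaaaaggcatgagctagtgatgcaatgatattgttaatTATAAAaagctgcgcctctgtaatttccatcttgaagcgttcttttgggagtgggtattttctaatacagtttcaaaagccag
FBN2, chr5:128538196-128538495, minus strand: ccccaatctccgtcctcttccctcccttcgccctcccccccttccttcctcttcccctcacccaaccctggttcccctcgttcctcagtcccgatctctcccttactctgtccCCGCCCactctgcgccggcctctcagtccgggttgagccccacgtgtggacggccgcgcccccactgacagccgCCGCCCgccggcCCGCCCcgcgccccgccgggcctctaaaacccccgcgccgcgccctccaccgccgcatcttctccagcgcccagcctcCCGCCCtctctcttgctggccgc

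The FBLN1 window held 35 CG pairs and 1 GC box, the first FBLN5 window 35 CG pairs and 3 GC boxes, of which 2 overlap by 1 base, and the FBN2 window 30 CG pairs and 4 GC boxes. The second FBLN5 window held 15 CG pairs, 1 GC box and TATA letters from base -33 to base -28, counted with the start as base 1. Across the 35116 windows of the table, 45% held a GC box, 11.5% TATA letters, 14% the TEAD core, 7.71% AP-1 letters and 1.29% a CArG box. Among the 17016 windows of tested genes, to which the printed ones belong, the shares were 64%, 6.65%, 11.4%, 5.48% and 1.13% in the same order. Among all 10 windows of members, the TEAD core was found only in that of FBN1, AP-1 letters only in the first window of MFAP2, and a CArG box in none. These matches are a description of letters in these windows and were not tested for any use by a factor. FBLN2, the member with the fewest reads, has a first window with 43 CG pairs and 7 GC boxes, more of both than any window printed here.

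All 9 members that could be tested differed between the 2 groups, 5 higher and 4 lower in NUAK2-CR at an adjusted p under 0.05 (edgeR's quasi-likelihood test, 14873 genes tested). FBLN5, FBN2, EFEMP2, FBN1 and MFAP2 rose, and MFAP5, ELN, FBLN1 and EFEMP1 fell. Of all tested genes 54.5% were called, 26.3% higher and 28.2% lower. Past the study's DEG thresholds, which add an absolute log2 fold change over 2, were 5 members, FBLN5 and FBN2 higher and MFAP5, ELN and FBLN1 lower, against 4.72% of all tested genes, 1.89% higher and 2.83% lower. The values of the 2 groups did not overlap for any of the 9, which held for 61.4% of all tested genes. The tenth member, FBLN2, was removed by the filter on low counts, and MFAP5 and ELN passed that filter only through their WT libraries. The members were also chosen with earlier results of these data known, so the counts over the 9 are a description. Their median log2 fold change was 0.40, which is the value of FBN1, against -0.01 over all tested genes. With values from -7.77 to 2.89, that median describes no common shift of the members.

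**Figure D1:**
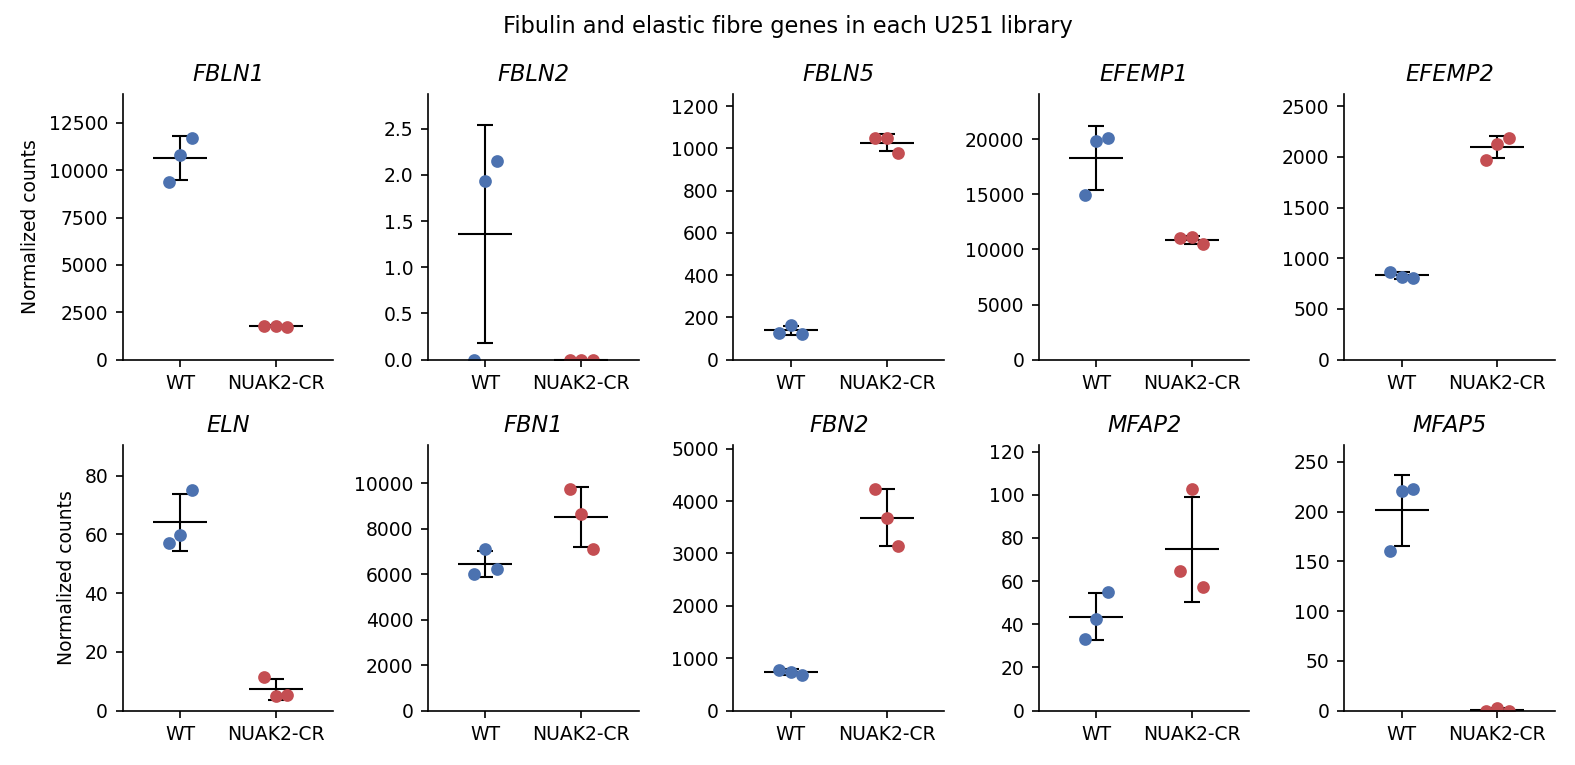
Normalized counts (linear axis from 0, one scale per gene) of the 10 genes in the WT and NUAK2-CR libraries. Points are libraries in replicate order, and bars are the mean and SD of 3. FBLN5, EFEMP2 and FBN2 are higher in every NUAK2-CR library, FBLN1, EFEMP1, ELN and MFAP5 are lower, and FBN1 and MFAP2 are separated by narrow gaps.

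The fibulins went in both directions. FBLN1 (gene 2192, chr22:45502883-45601135, plus strand) encodes fibulin-1, a basement membrane and blood protein that binds fibronectin. Its normalized counts in replicates 1, 2 and 3 were 9389, 10815 and 11714.5 for WT, and for NUAK2-CR they were 1792, 1793 and 1702. Every edited library lay far below the lowest WT library. The means were 10639.5 ± 1173 (SD, n = 3) and 1762 ± 52.5 (SD, n = 3), and the log2 fold change was -2.59 (95% interval -2.79 to -2.40, edgeR adjusted p = 4.4e-10).

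FBLN5 (gene 10516, chr14:91869411-91947694, minus strand) encodes fibulin-5, which carries an integrin-binding RGD site and brings tropoelastin to microfibrils. WT libraries held 128, 164 and 124 normalized counts of it, and NUAK2-CR libraries 1050.1, 1049 and 980.4. The edited libraries lay close together and far above all WT libraries. Its mean of 138 ± 22.3 in WT became 1027 ± 40.02 (SD, n = 3 in each group), a rise of 7.43-fold with a log2 fold change of 2.89 (95% interval 2.62 to 3.16, edgeR adjusted p = 2.72e-09).

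EFEMP1 (gene 2202, chr2:55865967-55923782, minus strand) encodes fibulin-3, known as a secreted protein of gliomas. It was the member with the most reads, with 14917, 19855 and 20118 normalized counts in WT libraries against 10991, 11108.5 and 10455 in edited libraries. WT replicate 1 stood nearer to the NUAK2-CR libraries than the other WT libraries did, but remained above them. The mean fell from 18297 ± 2929.9 (SD, n = 3) to 10851.5 ± 349 (SD, n = 3), or 59.3% of WT (log2 fold change -0.75, 95% interval -0.97 to -0.53, edgeR adjusted p = 4.96e-05).

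EFEMP2 (gene 30008, chr11:65866441-65872800, minus strand) encodes fibulin-4, which binds lysyl oxidase and is needed for elastic fibre formation. WT libraries held 868, 816 and 807 normalized counts of it and NUAK2-CR libraries 1973, 2129.8 and 2188. Both groups were tight, and the fold was 2.52 (log2 fold change 1.34, SE 0.08, edgeR adjusted p = 3.37e-08). EFEMP2 shares 11 exon bases with MUS81 on the opposite strand, and the strand setting of the counting was not given.

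FBLN2 (gene 2199, chr3:13549125-13638404, plus strand), which encodes fibulin-2 of basement membranes and vessel walls, was barely detected. It had 0, 2 and 2 raw counts in WT and 0 in each NUAK2-CR library. A count of 0 over the group allows up to 3 counts, by counting error only, and the 4 WT counts scaled for library size were 0.971 times that floor, so no difference was detectable at this depth.

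The 2 fibrillins both rose, by unequal amounts. FBN1 (gene 2200, chr15:48408313-48645709, minus strand), the main fibrillin of adult microfibrils and the gene altered in Marfan syndrome, had 6001, 7094 and 6231 normalized counts in WT libraries against 9747, 8623 and 7116 in edited libraries. NUAK2-CR replicate 3 lay just above WT replicate 2. The rise was 1.32-fold (log2 fold change 0.40, 95% interval 0.17 to 0.63, edgeR adjusted p = 0.00656). FBN2 (gene 2201, chr5:128257909-128538245, minus strand), the fibrillin of fetal tissues, had 784, 745 and 684 normalized counts in WT libraries against 4232, 3683 and 3139.8 in edited libraries. The means were 738 ± 50.8 and 3685 ± 546 (SD, n = 3 in each group), a rise of 4.98-fold, with no WT library near the lowest NUAK2-CR library. The log2 fold change was 2.32 (95% interval 2.09 to 2.55, edgeR adjusted p = 4.44e-09). FBN2 shares 56 exon bases with SLC27A6 on the opposite strand. SLC27A6 had 155, 134 and 127 raw counts in WT libraries and 273, 282 and 277 in NUAK2-CR libraries, so its counts were higher there too.

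ELN (gene 2006, chr7:74028173-74069907, plus strand) encodes tropoelastin, the soluble precursor of the elastin core, and had few reads. WT libraries held 86, 62 and 70 raw counts of it and NUAK2-CR libraries 9, 4 and 5. The normalized means were 64.1 ± 9.78 and 7.25 ± 3.64 (SD, n = 3 in each group), so that ELN was 8.78-fold lower (log2 fold change -3.13, 95% interval -4.03 to -2.28, edgeR adjusted p = 3.04e-05). The NUAK2-CR level is known only roughly, since its SD was 50.2% of its mean. ELN shares 165 exon bases with ELN-AS1 on the opposite strand, which was not analysed here.

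The microfibril-associated glycoproteins MFAP2 and MFAP5 bind fibrillin, and MFAP5 also carries an RGD site. MFAP5 (gene 8076, chr12:8645943-8662826, minus strand) had 241, 229 and 207 raw counts in WT libraries against 0, 2 and 0 in edited libraries. The gene was thus near the limit of detection in every edited library and well detected in every WT library. Summed over libraries, 677 counts stood against 2, a ratio of 246 after scaling for library size, with a 95% exact counting interval from 67.9 to 2039. The fitted log2 fold change of -7.77 (edgeR adjusted p = 7.57e-08) depends on the prior count. Without NUAK2-CR replicate 2, which held both counts, the WT level was 110.4 times a floor of 3 counts set over the 2 libraries left. That value leaves out the only edited library with reads of MFAP5 and allows no error in the WT counts. It is therefore not a lower bound on the fold change. MFAP5 shares 65 exon bases with the pseudogene HADHAP2 on the opposite strand, which was not analysed here.

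MFAP2 (gene 4237, chr1:16974502-16981583, minus strand) had 33.2, 42.4 and 54.8 normalized counts in WT libraries against 64.8, 103 and 57.1 in edited libraries. NUAK2-CR replicate 3 exceeded WT replicate 3 by a narrow margin. The log2 fold change was 0.79 (95% interval 0.11 to 1.48, edgeR adjusted p = 0.0478), the weakest call among the members. It was lost without WT replicate 1 (0.63, adjusted p = 0.129), without WT replicate 2 (0.78, adjusted p = 0.0984), without NUAK2-CR replicate 1 (0.90, adjusted p = 0.0557), without NUAK2-CR replicate 2 (0.50, adjusted p = 0.241) and with DESeq2 (0.80, adjusted p = 0.0606). The direction was the same each time. MFAP2 also shares 368 exon bases with a long non-coding RNA on the opposite strand, more than any other member shares with a neighbour, and reads of the 2 cannot be told apart if strand was not used in counting.

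**Figure D2:**
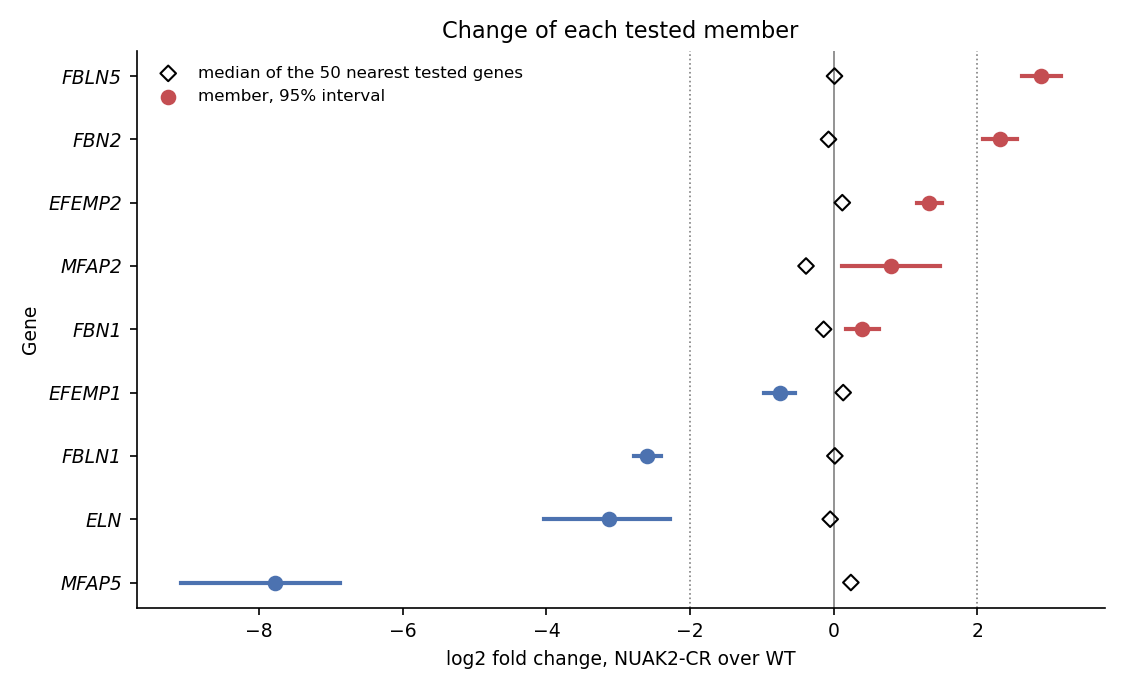
Log2 fold change of NUAK2-CR over WT (x axis) for the 9 tested genes, ordered by value, with 95% intervals as lines. Blue genes fell, red genes rose, dotted lines mark the DEG threshold of 2 in either direction, and diamonds show the median of the 50 tested genes nearest to each member. The diamonds lie between -0.38 and 0.24, away from the intervals of all 9 genes.

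Genes around the members were compared, since shifts of whole chromosome regions can move single genes. The 50 tested genes nearest to each tested member had median log2 fold changes from -0.38 around MFAP2 to 0.24 around MFAP5. Relative to these medians the members kept their directions, and the largest shift was that of MFAP2, from 0.79 to 1.18. FBLN1, at -2.59, lay among genes with a median of 0.02, and FBLN5, at 2.89, among genes with a median of 0.01.

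Levels of different genes were compared as CPM divided by the length of the MANE Select transcript in kilobases. In WT, EFEMP1 was highest at 180 ± 28.8 (SD, n = 3), followed by FBLN1 at 97.7 ± 10.8, FBN1 at 14.8 ± 1.32 and EFEMP2 at 11.4 ± 0.45 on this scale. MFAP5 at 1.87 ± 0.33, FBN2 at 1.80 ± 0.12, FBLN5 at 1.41 ± 0.23, MFAP2 at 1.11 ± 0.28 and ELN at 0.503 ± 0.077 came after. The libraries of MFAP5 overlapped with those of FBN2 and with those of FBLN5, and the libraries of FBLN5 overlapped with those of MFAP2. In NUAK2-CR the level of EFEMP1 was 107 ± 3.43, of EFEMP2 28.9 ± 1.53, of FBN1 19.5 ± 3.03 and of FBLN1 16.2 ± 0.48, and FBN1 and FBLN1 overlapped. FBLN5 at 10.4 ± 0.41 and FBN2 at 8.99 ± 1.33, which overlapped too, stood above MFAP2 at 1.91 ± 0.62 and ELN at 0.0569 ± 0.029. MFAP5, with 2 counts in all, came last of the 9 there. On this length FBLN1 went from the second place to the fourth, which it shared with FBN1 within the spread, and EFEMP2 from the fourth to the second. With the union of all annotated exons as the length, the order of these genes in NUAK2-CR was EFEMP1, FBN1, EFEMP2, FBLN1, FBN2 and FBLN5, with FBN1 and EFEMP2 overlapping and FBLN1 below both without overlap. The second place of EFEMP2 in NUAK2-CR therefore depends on the length, while the mean of FBLN1 went from the second place to the fourth with either.

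The sum of the 10 genes on that scale was 311 ± 40.0 for WT and, at 62.1% of that, 193 ± 7.49 for NUAK2-CR (SD, n = 3 in each group). EFEMP1 made up 57.8% ± 2.06 (SD, n = 3) of the sum in WT cells, against 55.4% ± 0.48 in edited cells, with overlapping libraries. The share of FBLN1 went from 31.5% ± 1.24 to 8.39% ± 0.078, with no overlap. EFEMP2 went from 3.74% ± 0.68 to 15.0% ± 1.29, FBN1 from 4.79% ± 0.50 to 10.1% ± 1.25, FBLN5 from 0.455% ± 0.073 to 5.41% ± 0.0069 and FBN2 from 0.589% ± 0.12 to 4.65% ± 0.55. These shares and the sum depend on the length used. Summed as normalized counts, with no scaling for length, the 10 genes in NUAK2-CR stood at 74.9% of WT. With the union of all annotated exons, FBLN1 took 21.8% in WT and 5.72% in NUAK2-CR, EFEMP2 2.33% and 9.21%, and FBN1 5.22% and 10.8%.

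**Figure D3:**
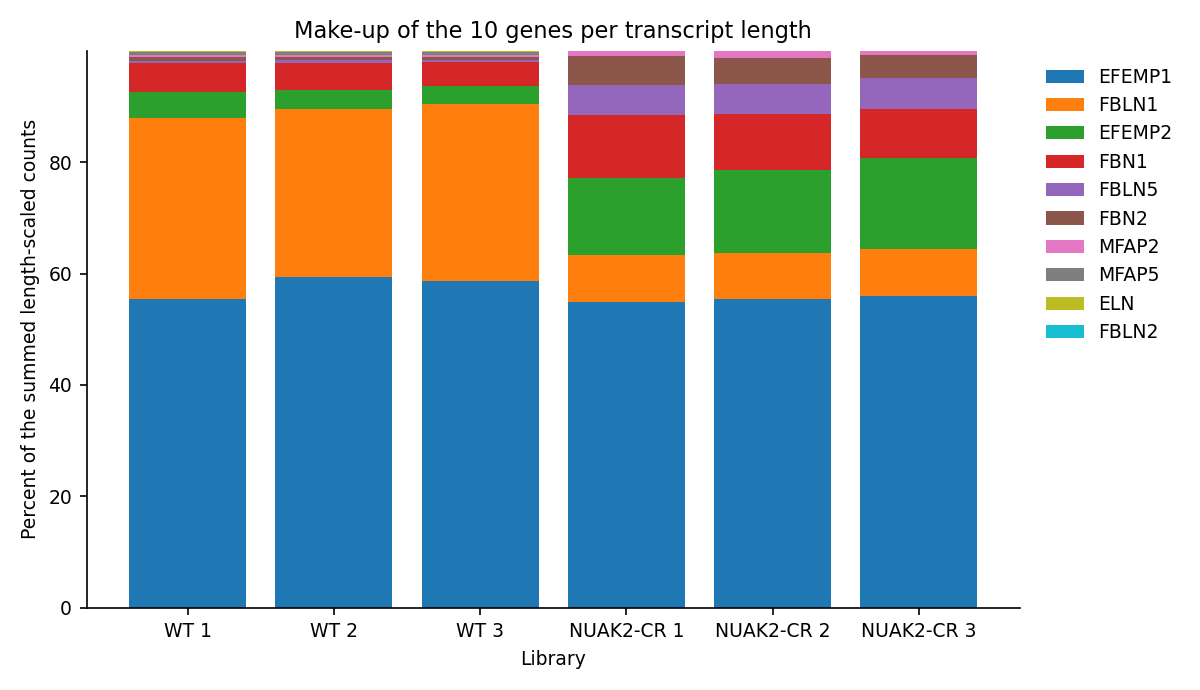
Percent (y axis) that each of the 10 genes takes of their summed counts per transcript length, in each of the 6 libraries (x axis). EFEMP1 takes between 54.9% and 59.3% in every library, the FBLN1 segment shrinks to about 8.39% in NUAK2-CR, and the EFEMP2, FBN1, FBLN5 and FBN2 segments widen.

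Ratios of relatives or partners within a library need no scaling between libraries. FBLN1 had 73.6, 65.9 and 94.8 raw counts for each count of FBLN5 in WT, and 1.71, 1.71 and 1.74 in NUAK2-CR. EFEMP1 had 17.2, 24.3 and 24.9 for each count of EFEMP2 in WT and 5.57, 5.22 and 4.78 in NUAK2-CR. FBN1 had 7.65, 9.53 and 9.11 for each count of FBN2 in WT and 2.30, 2.34 and 2.27 in NUAK2-CR. All 3 ratios were lower in every NUAK2-CR library than in any WT library.

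FBN1, the scaffold, had 105, 119 and 82.8 counts for each count of ELN in WT and 853, 1787.5 and 1296 in NUAK2-CR. MFAP5 had 4.82, 5.20 and 4.06 counts for each count of MFAP2 in WT, and in NUAK2-CR it had 2 counts in all against 51, 85 and 52 of MFAP2. The mean log2 ratio changed by -5.49 for FBLN1 over FBLN5, by -2.08 for EFEMP1 over EFEMP2, by -1.92 for FBN1 over FBN2 and by -3.52 for ELN over FBN1. Over the 5 pairs tested, each exact two-sided permutation test gave p = 0.1, which is the smallest that 3 libraries against 3 allow and remained 0.1 after Benjamini-Hochberg adjustment. No ratio was computed with FBLN2, which was at the floor.

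**Figure D4:**
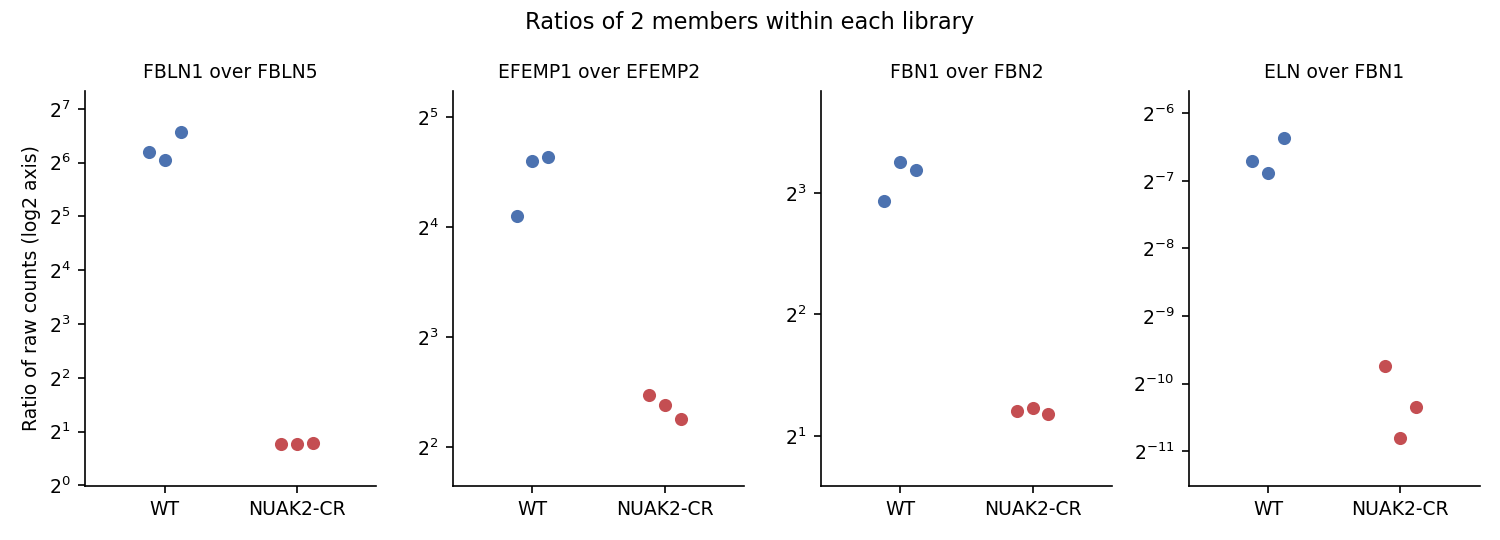
Ratio of the raw counts of 2 genes (y axis, log2 scale, a separate range for each pair) in the 3 WT and 3 NUAK2-CR libraries, 1 point per library. All 4 ratios are lower in NUAK2-CR, that of FBLN1 over FBLN5 by 5.49 on the log2 scale.

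Other genes of elastic fibre assembly and breakdown were read from the same test with 8 lists of 44 genes, of which 33 passed the filter on low counts. Of these, 19 rose and 6 fell at an adjusted p under 0.05, where 54.5% of all tested genes were called, 26.3% higher and 28.2% lower. The median log2 fold change of the 33 was 0.47, against -0.01 over all tested genes. MMP7 and MMP9, 2 of the 6 that fell, passed the filter only through their WT libraries. With at least 10 counts required in every library 19 rose and 4 fell. The lists were also chosen with earlier results of these data known, so these counts too are a description. All 4 genes of the list of latent TGF-beta binding proteins, which are fibrillin relatives, rose, with a median of 1.75. LTBP1 went up from a mean of 3543 ± 570 normalized counts to 23562 ± 397 (SD, n = 3 in each group), and LTBP2 from 628 ± 25.9 to 2255 ± 146. Of the microfibril proteins outside the members, MFAP4, which binds fibrillin and tropoelastin, went up from 69.8 ± 7.56 to 2126 ± 285 with a log2 fold change of 4.93 (edgeR adjusted p = 6.27e-11), while the other gene of that list was not tested.

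Among the 5 lysyl oxidases 3 rose and 2 did not pass the test. LOXL1, which crosslinks elastin and binds fibulin-5, rose from 5324.5 ± 350 to 14565.5 ± 272 (SD, n = 3) and LOXL4 from 572 ± 32.4 to 922 ± 42.7. Of the relatives of the fibulins, the hemicentin HMCN1 rose from 775 ± 137 to 1704 ± 382 (SD, n = 3), and the other 2 were not tested. Of the 6 tested ADAMTS and ADAMTSL genes that bind fibrillin, 3 rose and 3 did not pass the test, with ADAMTS6 at a log2 fold change of 1.14 and THSD4 at 0.93. Of the 6 tested chains of RGD-binding integrins 5 rose, with ITGB5 at 1.30 and ITGB3 at 0.76.

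The 2 remaining lists held all 6 of the decreases called. EMILIN2, an elastin-microfibril interface protein, fell from 333 ± 6.55 normalized counts to 17.2 ± 3.65, with a log2 fold change of -4.28 (edgeR adjusted p = 6.75e-09). Of the 3 tested emilins and multimerins 2 fell and 1 did not pass the test. Of the 7 tested proteases that degrade elastin 4 fell, MMP7 and MMP9 among them, and 2 rose. MMP7, with 2, 10 and 8 raw counts in NUAK2-CR, fell from 135 ± 12.4 to 7.79 ± 4.84 (SD, n = 3) and the cathepsin CTSV from 746 ± 46.8 to 156 ± 12.8. MMP2, named here after its values were seen, rose from 8148 ± 648 to 24605 ± 595 (SD, n = 3).

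**Figure D5:**
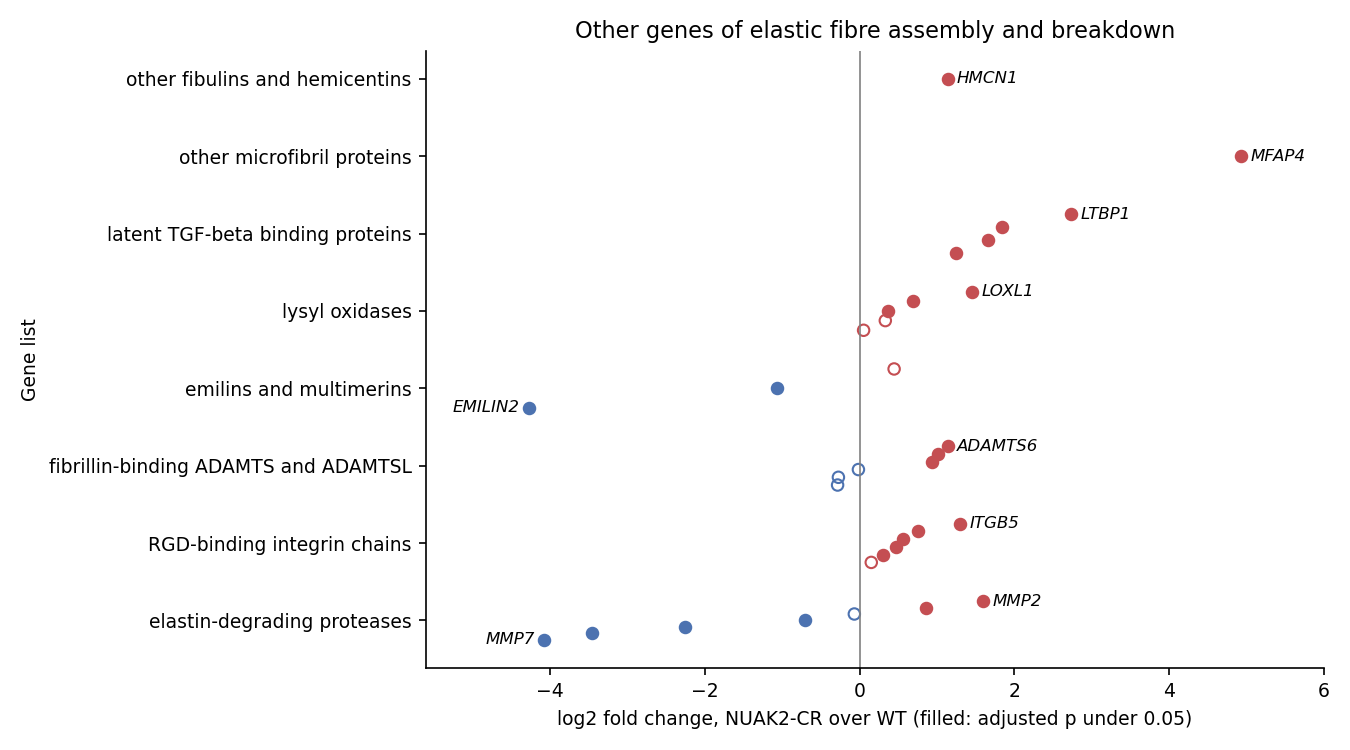
Log2 fold change of NUAK2-CR over WT (x axis) of the 33 tested genes in 8 lists (y axis), 1 point per gene. Red points are above 0 and blue points below, and filled points have an adjusted p under 0.05. The latent TGF-beta binding proteins all lie between 1.25 and 2.73, and the lowest points are EMILIN2 at -4.28 and MMP7 at -4.08.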

How the data were processed

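Raw counts per gene were deposited by the authors for 6 libraries of polyadenylated RNA. The submitters' processing notes and the methods name bcl2fastq, Trimmomatic, HISAT2 with hg38 and featureCounts, with default parameters; the gene annotation and strand setting were not given in the sources used here. Of 28395 NCBI gene identifiers, 27745 matched a symbol in RefSeq (GRCh38.p14). Counts of 1 to 20 were even for 62.4% to 66.4% of such genes, where independent single reads would give near equal numbers of odd and even counts, so counting intervals that treat each count as independent may be too narrow.

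Genes were tested in R 4.3.3 with edgeR 4.0.16 (filterByExpr, TMM, glmQLFit and the quasi-likelihood F test, prior count 0.125), with Benjamini-Hochberg adjustment over 14873 genes; the methods used DESeq2, which is an alternative here (1.42.0). Normalized counts are scaled to the mean effective library size. Intervals are at 95%. The pipeline was tested on simulated data. Alternatives were other normalizations and filters, each library left out, a replicate block, another prior count and another fold threshold; halved counts and union exon lengths were added after the data had been seen. Transcript lengths and overlaps came from GENCODE v44 and promoters from RefSeq, read with Python 3.11.15.

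The members, gene lists and motifs were chosen with earlier results of these data known. All 10 members were named. Of each list of other elastic fibre genes, up to 2 called genes were named, by largest absolute log2 fold change. Only genes whose group with the higher level averaged 100 normalized counts or more were eligible. MMP2 and MMP9 were added after their values had been seen. Of the marker lists, genes were named where needed to state a level. No pair of libraries of a group agreed within sampling noise.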

Additional observations from a re-analysis of the deposited data

How the results depend on the processing

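The 124 member values recomputed under 14 alternatives kept their direction, and 118 kept their side of the threshold. The other 6 were all of MFAP2. The alternative prior count changes only the fold change and leaves the adjusted p as it was, so its values could not change side. Members called numbered 7 with at least 10 counts in every library, where MFAP5 and ELN were not tested, and 8 or 9 under the other alternatives. Members past the DEG thresholds numbered 3 under that filter, for the same reason, and DEGs over all genes 339 against 702. An absolute log2 fold change over 1 gave 6 members and 2062 genes. Halving the counts left 9 members called. Leaving out 1 library moved ELN between -3.58 and -2.92, FBLN1 between -2.67 and -2.52 and FBLN5 between 2.82 and 3.02. The change of the MFAP2 over MFAP5 ratio was 8.38 on the log2 scale and 7.62 with a pseudocount of 1, since it rests on counts of 0.

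Deviations of same-numbered libraries correlated at 0.043, -0.035 and 0.048, so the numbers were not taken to pair the samples. With a replicate block 8 members and 8167 genes were called, and MFAP2 had an adjusted p of 0.0578.

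Depth limits FBLN2, ELN and MFAP5 in NUAK2-CR: at 0 to 9 counts per library their levels there have wide counting errors. Nothing here separates the NUAK2 edit from the choice of a clone.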
